A study of Mus musculus with 16 samples.

Results

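The 44 genes described here encode the enzymes and subunits that build the N-linked glycan on its lipid carrier, pass it to proteins and trim it on the way through the secretory pathway. They were taken by symbol from a list of 44 names, and all 44 were found among the 52916 gene symbols shared by the 16 libraries of the series. The list names genes by role and uses no expression value as a criterion, but it was drawn up with earlier results of these data known. HM1 tumours, a mouse ovarian cancer model, were studied with and without supplementation of mannose, a sugar that is part of the core of every N-glycan. Bulk RNA sequencing gave 5 control and 5 mannose libraries of whole tumour tissue, and 3 control and 3 mannose libraries of CD8 T cells sorted from such tumours. Sex, age, strain, dose and length of supplementation are not in the sources used here, nor is it said whether any group received the PD-1 antibody that the series title names. The labels do not tie libraries to animals, so every p-value here reflects only how far these samples spread, which may be technical.

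N-glycosylation starts on dolichol, a long lipid of the endoplasmic reticulum membrane. Sugars are added from nucleotide sugars on the cytosolic face and then, after the lipid is flipped, from dolichol-bound mannose and glucose on the luminal face. Oligosaccharyltransferase moves the finished glycan to asparagines of nascent proteins, glucosidases and mannosidases trim it, and the Mgat enzymes of the Golgi start new branches with N-acetylglucosamine. The branches carry galactose that galectins bind, and in T cells the branch that Mgat5 starts is known for restraining receptor signalling.

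Values are TPM, transcript abundance per length and scaled to a common total, so levels of different genes can be compared, and differences are on the log2(TPM + 1) scale, mannose minus control, unless said otherwise. Errors of TPM are standard deviations, and SE is the standard error of a log2 difference. No member was under 1 TPM in any library: values ran from 1.74 TPM (Mgat4a in tumour control 1) to 320.48 TPM (Dpm3 in the same tumour). A gene is called where limma's Benjamini-Hochberg adjusted p over all genes tested is under 0.05, and all 44 members were tested in each fit. Read depth is unknown for TPM; the symbols at or above 1 TPM numbered 12345 to 14384.

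Several features of the libraries touch the results below. The value columns of the 3 CD8 control tables are headed as mannose, so each CD8 direction rests on the sample labels. The 9 T cell markers were all detected in the CD8 libraries, summing to between 5442.6 and 6047.2 TPM in controls and to 2721.9, 3482.4 and 5618.1 TPM in mannose 1, 2 and 3. All 9 were lower with mannose (median -0.64), 8 with an unadjusted limma p under 0.05 and 1 called. Markers of other cells were present as well and moved with the group: 10 of 10 macrophage markers fell (summed TPM 3396.2 to 3898.1 in controls, 999.2 to 1340.2 with mannose), while 5 of the 7 tested of 12 carcinoma markers rose and 1 fell (261.0 to 579.3, and 1747.6 to 2672.5). Fibroblast markers rose for 6 of 7 genes (46.2 to 135.9, and 246.5 to 387.2), and neutrophil markers fell for 4 of 5 (285.8 to 645.8, and 94.2 to 193.2). Dendritic cell markers fell for the 3 tested of 4, and endothelial markers rose for 2 of 5. None of these markers was at 0 in a CD8 group. The 4 B cell markers summed to 1.8 to 2.2 TPM in controls and 0.4 to 0.8 TPM with mannose. Of these 4, Ms4a1 was at 0 in both groups, and Cd79b, the only 1 tested, was called lower by limma (-0.83, adjusted p = 0.0124). Fewer cells of a type and less RNA per cell cannot be told apart in bulk libraries, and neither can the mannose group and its different make-up. Control 1 and 2 of the CD8 libraries were the closest controls (r = 0.9812, against 0.9711 and 0.9719 with control 3). Mannose 1 and 2 were the closest mannose libraries (r = 0.9827, against 0.9609 and 0.9659 with mannose 3). These r are over genes with at least 1 TPM in at least 3 libraries. Tumours of different groups reached 0.9822 (control 2 with mannose 4). Results with each CD8 pair averaged are given where they matter.

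The upstream sequences of the members that fell and rose most in CD8 T cells, among those with a RefSeq promoter entry, show what kind of promoter these genes have. Each window runs from 250 bases before to 50 bases after the annotated start, 5′ to 3′ on the gene's strand, on build GRCm38.p6, which differs from the build of the expression tables. Capitals mark a CCAAT box (CCAAT or ATTGG), a GC box (GGGCGG or CCGCCC) or an E-box (CACGTG).

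Mgat4a: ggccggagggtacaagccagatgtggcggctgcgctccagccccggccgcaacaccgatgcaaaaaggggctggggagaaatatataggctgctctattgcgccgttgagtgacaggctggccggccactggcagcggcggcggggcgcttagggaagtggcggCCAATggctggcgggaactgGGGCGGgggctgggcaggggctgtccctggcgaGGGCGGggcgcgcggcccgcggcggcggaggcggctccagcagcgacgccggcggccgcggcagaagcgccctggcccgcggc
Man2a1: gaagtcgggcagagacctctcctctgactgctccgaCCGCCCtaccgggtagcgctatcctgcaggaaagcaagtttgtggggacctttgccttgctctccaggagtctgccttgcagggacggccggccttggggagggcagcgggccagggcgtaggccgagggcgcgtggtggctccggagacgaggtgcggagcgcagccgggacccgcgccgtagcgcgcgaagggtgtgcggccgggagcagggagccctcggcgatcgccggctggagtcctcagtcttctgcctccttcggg
Alg6: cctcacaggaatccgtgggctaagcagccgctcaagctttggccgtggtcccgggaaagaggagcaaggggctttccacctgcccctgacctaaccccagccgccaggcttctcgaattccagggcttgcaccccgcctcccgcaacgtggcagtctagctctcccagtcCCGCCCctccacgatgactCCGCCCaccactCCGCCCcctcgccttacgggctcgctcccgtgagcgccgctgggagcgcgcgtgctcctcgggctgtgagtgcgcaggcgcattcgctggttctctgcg
Alg10b: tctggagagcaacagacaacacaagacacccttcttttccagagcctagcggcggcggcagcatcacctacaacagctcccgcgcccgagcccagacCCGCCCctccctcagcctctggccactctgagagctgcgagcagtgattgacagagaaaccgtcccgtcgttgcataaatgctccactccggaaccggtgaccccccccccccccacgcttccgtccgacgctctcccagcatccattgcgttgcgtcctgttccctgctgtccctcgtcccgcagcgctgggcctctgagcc

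Mgat4a on the minus strand of chromosome 1 (chr1:37540967-37541266) starts N-glycan branches and had the largest fall; Man2a1 on the plus strand (chr17:64601399-64601698) is a trimming mannosidase and fell too. Alg6 on the plus strand (chr4:99715380-99715679) and Alg10b on the plus strand (chr15:90224061-90224360) are glucosyltransferases that rose. A further annotated start of Mgat4a (chr1:37536355-37536654) has none of these motifs and a GC content of 36.0%, against 74.3% for the window printed, and the tables do not tell the starts apart. An entry was found for 36 members, with 40 windows among them. A GC box was found in 72.5% of the 40 windows against 35.7% of all 32851 windows of the table, a CCAAT box in 52.5% against 37.4%, and an E-box in 17.5% against 7.15%. The endoplasmic reticulum stress element (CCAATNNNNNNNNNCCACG on either strand, which contains a CCAAT box) was found in 1 member, Alg12, or 2.5% of the windows against 0.119% of all. These matches describe letters in a window and not binding.

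In sorted CD8 T cells, 12 of the 44 genes were called higher with mannose and 4 lower. Over all genes tested 23.2% were called higher and 11.7% lower, 34.9% in all, so the member shares, 27.3% higher and 9.09% lower, were near the background. The median member difference was 0.21, against 0.09 over all genes, and 25 members had an unadjusted p under 0.05 (background 46.3%). By role, the rises were all 3 luminal glucosyltransferases, 2 of 3 glucosidase genes, 3 of 6 mannosidases and 2 of 5 branching enzymes. To these came 1 of 6 cytosolic-side assembly enzymes and 1 of 9 oligosaccharyltransferase subunits. Each role is too short to read against the background of 23.2%. The calls of Alg8, Mogs, Man1c1 and Man1b1 were lost in most alternatives, as given below. The falls were single genes of dolichol supply, donor use, mannose trimming and branching. The groups did not overlap for 23 members higher with mannose and 7 lower (background 33.3% and 18.1%, 51.4% in all).

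**Figure D1:**
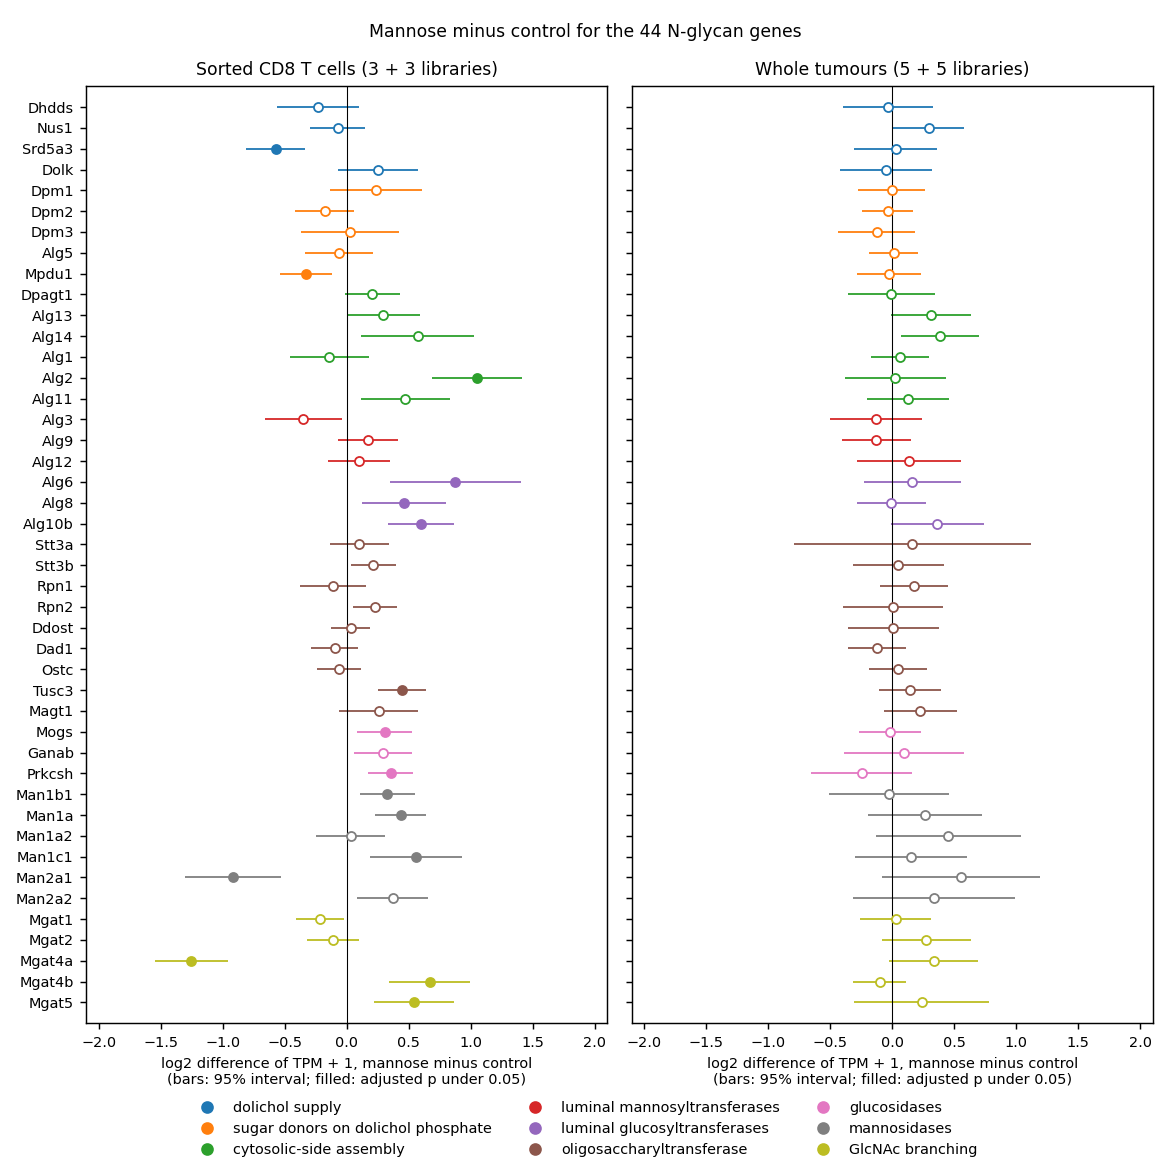
Log2 difference of TPM + 1 between mannose and control for each of the 44 genes, in sorted CD8 T cells (left, 3 and 3 libraries) and whole tumours (right, 5 and 5), with 95% intervals and colours for the 9 roles. Filled points passed the adjusted threshold: 16 on the left, from -1.25 (Mgat4a) to 1.05 (Alg2), and none on the right.

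Among the genes of dolichol supply, Srd5a3, which reduces polyprenol to dolichol, measured 24.2, 26.2 and 23.1 TPM in CD8 controls 1 to 3 and 15.6, 15.5 and 17.3 TPM in mannose 1 to 3. Every mannose library was below every control. The fall was -0.57 (SE 0.10, adjusted p = 0.00633); scaled to the T cell markers, which moves the median of all genes to 0.64, it was 0.0078. Dhdds and Nus1, the subunits of the enzyme that makes the polyprenol, and Dolk, the kinase that makes dolichol phosphate, were not called, with differences of -0.23, -0.07 and 0.25.

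The donors of the luminal steps are mannose and glucose on dolichol phosphate. Mpdu1, needed for the use of both donors, measured 73.4, 86.6 and 84.5 TPM in controls and 63.7, 63.6 and 66.7 TPM with mannose. The groups did not overlap, and the fall was -0.33 (SE 0.09, adjusted p = 0.029); scaled to the T cell markers the difference was 0.28. The Mpdu1 call was kept in 8 of 15 alternatives, with adjusted p from 0.0838 to 0.11 without control 2, control 3, mannose 1 or mannose 2. None of the 3 subunits of dolichol-phosphate-mannose synthase, the enzyme that uses GDP-mannose for the luminal steps, was called: Dpm1, the catalytic subunit, differed by 0.24 (95% interval -0.14 to 0.61), Dpm2 by -0.18 (-0.42 to 0.06) and Dpm3 by 0.03 (-0.37 to 0.42). Alg5, which makes the glucose donor, differed by -0.06.

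On the cytosolic face, Alg2, which adds the inner branching mannoses, had the largest rise of all members. Its values were 11, 10.6 and 8.39 TPM in controls and 24.7, 22.0 and 18.6 TPM with mannose. The lowest mannose library lay well above the highest control. The difference was 1.05 (SE 0.15, adjusted p = 0.00348), or 2.07-fold on the TPM + 1 scale, and it was called in each of the 15 alternatives run, the averaged pairs included. The enzymes on either side of Alg2 were not called: Dpagt1, which starts the glycan, differed by 0.21, Alg13 and Alg14, which add the next sugar together, by 0.30 and 0.57, Alg1, which adds the first mannose, by -0.14, and Alg11, which adds the last cytosolic mannoses, by 0.47. Alg11 (adjusted p = 0.0502) and Alg14 (adjusted p = 0.0561) lay just outside the threshold.

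The luminal mannosyltransferases Alg3, Alg9 and Alg12 were not called, with differences of -0.35, 0.17 and 0.10. The 3 glucosyltransferases that follow them were all called higher. Alg6, which adds the first glucose, measured 5.87, 4.37 and 4.03 TPM in controls and 7.21, 12.6 and 9.28 TPM with mannose. Mannose 2 was the highest and the groups did not overlap; the difference was 0.88 (SE 0.22, adjusted p = 0.0231). Alg8, which adds the next glucose, measured 11.7, 13.4 and 9.33 TPM in controls and 15.8, 16.2 and 16.2 TPM with mannose. The mannose values were nearly equal while control 3 was low, and the difference was 0.46 (SE 0.14, adjusted p = 0.0456). Alg10b, which adds the last glucose that oligosaccharyltransferase recognises, measured 19.8, 19.5 and 16.3 TPM in controls and 30.4, 28.1 and 26.9 TPM with mannose. These groups were well apart, with a difference of 0.60 (SE 0.11, adjusted p = 0.00788). Of 15 alternatives, Alg10b kept its call in 14, losing it with the like pairs averaged, Alg6 in 9 and Alg8 in 5. Alg6 lost it without control 2, control 3 or mannose 2 (adjusted p from 0.0707 to 0.077) and Alg8 without any library but control 2 (0.0762 to 0.131), in the fit with the replicate block (0.0586) and after quantile normalization (0.27, adjusted p = 0.13). Summed, the 3 glucosyltransferases measured 34.8 ± 4.41 and 54.2 ± 2.39 TPM (SD, n = 3 each).

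Oligosaccharyltransferase was the most abundant step, at 924 ± 22.3 TPM over 9 genes in CD8 controls and 966 ± 29.7 TPM with mannose (SD, n = 3), and 1 of its 9 genes was called. That gene was Tusc3, an oxidoreductase subunit of the complexes built on Stt3b. It measured 27.3, 28.8 and 28.8 TPM in controls and 40.3, 38.3 and 38.2 TPM with mannose. Both groups were tight and did not overlap; the difference was 0.45 (SE 0.08, adjusted p = 0.00694). Its paralogue Magt1 measured 15.9, 19.6 and 16.4 TPM in controls and 22.1, 22.7 and 18.0 TPM with mannose. Mannose 3 fell below control 2, and the difference of 0.26 was not called (adjusted p = 0.182). Stt3a, the catalytic subunit that acts while proteins enter the reticulum, measured 173, 201 and 162 TPM in controls and 179, 202 and 192 TPM with mannose, and the groups overlapped (0.10, 95% interval -0.14 to 0.34). Stt3b, the catalytic subunit that also acts on sites that were passed over, measured 38.2, 38.1 and 37.5 TPM and then 44.5, 43.2 and 45.0 TPM. The groups of Stt3b did not overlap, but its difference of 0.22 was not called (adjusted p = 0.0636). The shared subunits Rpn1, Rpn2, Ddost and Dad1 and the Stt3a partner Ostc differed by between -0.11 and 0.23, none called.

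Of the trimming glucosidases, Mogs, glucosidase I, rose by 0.31 (adjusted p = 0.0438) and Prkcsh, the regulatory subunit of glucosidase II, by 0.35 (adjusted p = 0.0129). Ganab, the catalytic subunit of glucosidase II, differed by 0.30 and was not called (adjusted p = 0.0567). Summed, they measured 223 ± 12.4 and 279 ± 8.25 TPM (SD, n = 3), without overlap. Among the mannosidases, Man1b1 of the early pathway rose by 0.33 (adjusted p = 0.0322). These calls were near the threshold: of 15 alternatives Prkcsh kept its call in 10, Man1b1 in 6 and Mogs in 4. Prkcsh lost it without control 2 or mannose 2 (adjusted p from 0.0512 to 0.0516), Man1b1 without any library but mannose 3 (0.0522 to 0.107), and Mogs without any but mannose 1 (0.0735 to 0.143) and in the fit with the replicate block (0.0777).

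The Golgi mannosidases I are encoded by 3 paralogues. Man1a measured 32.2, 35.3 and 31.1 TPM in controls and 44, 44.5 and 45.8 TPM with mannose. Every mannose library was higher, by 0.44 (SE 0.09, adjusted p = 0.00934). Man1c1 measured 6.60, 6.98 and 5.80 TPM in controls and 11.4, 10.5 and 8.18 TPM with mannose. It was also higher in each mannose library, by 0.56 (SE 0.16, adjusted p = 0.0329), but kept its call in only 5 of 15 alternatives, against 13 for Man1a. The Man1c1 difference was 0.33 after quantile normalization (adjusted p = 0.133), and it was not called without any library but mannose 3 (adjusted p from 0.068 to 0.115). Man1a2 measured 13.8, 16.5 and 16.1 TPM in controls and 16.6, 16.4 and 14.5 TPM with mannose. Its groups overlapped, with a difference of 0.03 (adjusted p = 0.849) that was -0.15 by quantile normalization, -0.048 by median ratio and 0.61 scaled to the T cell markers, which moves the median of all genes to 0.64.

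Golgi mannosidase II, which removes the last mannoses before complex branches are made, is encoded by Man2a1 and Man2a2, and these paralogues had differences of opposite sign. Man2a1 measured 42.8, 42.2 and 38.8 TPM in CD8 controls and 17.9, 19.7 and 27.7 TPM with mannose. Mannose 3 lay nearest to the controls. Of the CD8 mannose libraries it had the highest T cell marker sum and the lowest carcinoma and macrophage sums (1747.6 and 999.2 TPM), whose part in the value was not tested. The fall was -0.91 (SE 0.16, adjusted p = 0.0065); scaled to the T cell markers it was -0.33 and not called (adjusted p = 0.327), and the call was also lost in the fit of all 16 libraries (0.0554) and with the like pairs averaged (0.0751). Man2a2 measured 26.1, 25.9 and 21.5 TPM in controls and 30.8, 35.5 and 29.5 TPM with mannose. Its groups did not overlap, but the difference of 0.37 missed the threshold (adjusted p = 0.0514). The Man2a2 share of the pair's TPM was 37.2% ± 1.30 in controls and 59.7% ± 7.07 with mannose (SD, n = 3), without overlap.

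The branching enzymes showed the largest contrast between paralogues. Mgat4a and Mgat4b start the same branch. Mgat4a measured 21.1, 25.0 and 21.2 TPM in CD8 controls and 7.95, 9.65 and 8.86 TPM with mannose. Every mannose library was under 10 TPM and every control above 21 TPM. The fall was -1.25 (SE 0.12, adjusted p = 0.00124), the largest of any member; scaled to the T cell markers it was -0.68 and not called (adjusted p = 0.11). Mgat4b measured 20.2, 24.8 and 25.9 TPM in controls and 39.3, 42.2 and 33.0 TPM with mannose. The lowest mannose library was above the highest control, and the rise was 0.67 (SE 0.14, adjusted p = 0.0106). The Mgat4b share of the pair was 48.9%, 49.8% and 55.0% in controls and 83.2%, 81.4% and 78.8% with mannose, so the pair's sum moved from a near even split to mostly Mgat4b.

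Mgat5 measured 12.2, 11.1 and 8.86 TPM in controls and 16.6, 15.9 and 15.5 TPM with mannose. Every mannose library was higher, by 0.55 (SE 0.14, adjusted p = 0.0218). The Mgat5 call was kept in 9 of 15 alternatives; it was lost without control 2, mannose 1 or mannose 2 (adjusted p from 0.0563 to 0.0756), and after quantile normalization the difference was 0.34 (adjusted p = 0.0586). Mgat1, which starts all complex and hybrid branches, and Mgat2, which adds the next one, differed by -0.22 and -0.11 and were not called (adjusted p = 0.083 and 0.37). The 5 branching genes summed to 146 ± 4.67 TPM in controls and 142 ± 4.44 TPM with mannose (SD, n = 3).

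**Figure D2:**
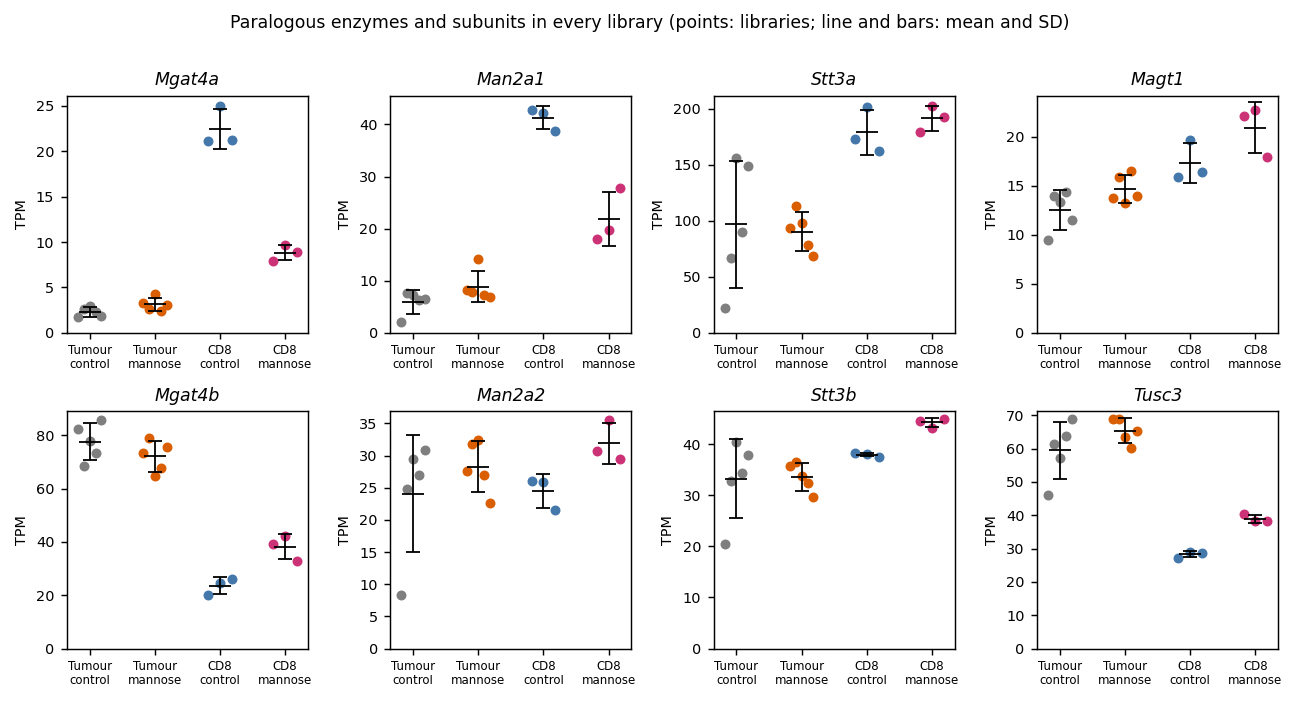
TPM of 4 pairs of paralogues (upper and lower panel of a column) in every library, by group, with mean and SD. In CD8 T cells Mgat4a and Man2a1 lie lower and Mgat4b, Man2a2, Stt3b and Tusc3 higher in each mannose library than in each control; in the tumours all 8 genes overlap between the groups.

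The CD8 counts moved with the processing. Averaging the like pairs, which leaves fewer libraries per group, left 1 rise (Alg2) and 1 fall (Mgat4a). Median-ratio scaling gave 7 rises, all among the 12, and a fit of all 16 libraries gave 7, of which 6 were among the 12. Array weights gave 22 rises and 10 falls, and scaling to the T cell markers gave 16 rises and 0 falls. The counts over all genes moved too. They were 1091 rises and 561 falls of 14459 genes with averaged pairs, and 2748 and 1258 of 15498 in the joint fit. With array weights they were 5114 and 3517 of 14280, and with T cell marker scaling 3795 and 342 of 14136. The count of rises was 6 without control 2, 7 without control 3 and 5 without mannose 2 (2401, 2428 and 1909 over all genes). Rises made up 3306 of the 4980 calls over all genes, against 2673 rises and 2305 falls after quantile normalization and 2733 and 2330 after median-ratio scaling; members then had 8 rises and 6 falls, and 7 and 6.

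The mannose effect in CD8 T cells was compared with that in the tumours by an interaction term over all 16 libraries. Of the 44 members, 2 had a higher effect in CD8 T cells (background 11%) and 2 a lower one (background 7.64%, 18.7% in all). Mgat4a differed by -1.59 (SE 0.23, adjusted p = 0.000294), Man2a1 by -1.47 (SE 0.42, adjusted p = 0.0239), Mgat4b by 0.77 (SE 0.16, adjusted p = 0.00386) and Alg2 by 1.03 (SE 0.28, adjusted p = 0.0181). The Mgat4 pair was called in each of the 20 alternatives run. T cell marker scaling, averaged like pairs and array weights were not run for this term. In the CD8 fit, Mgat4a lost its call with T cell marker scaling and Mgat4b with averaged pairs. Alg2 lost its call without CD8 control 3 or mannose 1, and Man2a1 without CD8 control 1, mannose 1 or mannose 2, with adjusted p from 0.0507 to 0.0754.

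In whole tumours, 0 of 44 members were called by limma (background 0%, with 0 of 13282 genes called), and 2 had an unadjusted p under 0.05 (background 6.23%). No member's groups were without overlap (background 1.51% higher and 0.128% lower, 1.63% in all). The median member difference was 0.05, against 0.12 over all genes. Its sign turned with the scaling, to -0.04 with quantile normalization and -0.06 with median ratios, and also when control 1 was left out (-0.02); these settings put the median of all genes at -0.005, 0.02 and 0.02.

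The 5 members with the smallest p were all higher with mannose on average, each with an adjusted p of 0.754. Most genes had that sign: 74.4% of all differences were positive, and 735 of the 827 genes with an unadjusted p under 0.05 were higher, against 303 higher and 441 lower after quantile normalization. That scaling put the 5 members at 0.18 (Alg14), 0.14 (Nus1), 0.13 (Alg13), 0.21 (Alg10b) and 0.15 (Mgat4a). Alg14 measured 5.99, 4.52, 3.57, 4.92 and 3.77 TPM in tumour controls 1 to 5 and 6.22, 6.70, 5.51, 5.94 and 6.45 TPM in mannose 1 to 5. Only control 1 reached into the mannose range (0.38, SE 0.14, unadjusted p = 0.0212). Nus1 measured 10.2, 15.1, 11.2, 14.0 and 12.4 TPM and then 15.4, 13.7, 15.2, 15.4 and 18.1 TPM. Here controls 2 and 4 overlapped with mannose 2 (0.29, SE 0.13, unadjusted p = 0.0463). Alg13, the partner of Alg14, measured 4.62, 7.52, 5.46, 5.90 and 6.12 TPM and then 6.38, 8.07, 6.49, 8.6 and 8.39 TPM, with control 2 inside the mannose range (0.31, SE 0.15). Alg10b measured 8.85, 16.5, 12.9, 16.3 and 12.2 TPM and then 17.1, 19.2, 13.5, 18.5 and 17.6 TPM, where mannose 3 lay among the controls (0.36, SE 0.17). Mgat4a, at 1.74, 2.65, 2.93, 2.26 and 1.84 TPM and then 3.33, 2.66, 4.24, 2.43 and 3.04 TPM, also overlapped (0.33, SE 0.16). The tumour difference of Mgat4a was thus positive while its CD8 difference was -1.25, the contrast tested above.

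The paralogue shares overlapped between the tumour groups in every set. Mgat4b held 97.1% ± 0.80 of its pair in control and 95.8% ± 1.16 in mannose tumours, and Man2a2 held 80.2% ± 2.19 and 76.5% ± 4.10 (SD, n = 5). In CD8 T cells, both shares were lower in controls than in any tumour, and the mannose values lay between the CD8 controls and the tumours. Stt3b held 29.9% ± 11.3 and 27.4% ± 2.44 of the catalytic pair in control and mannose tumours, and 17.6% ± 1.51 and 18.8% ± 1.14 in CD8 controls and mannose, overlapping in each tissue. For Tusc3 of Tusc3 and Magt1 the shares were 82.6% and 81.7% in the tumours and 62.1% and 65.2% in the CD8 groups, again overlapping. Man1a held 60.2% and 59.4% of the Golgi mannosidase I set in tumours and 59.96% and 63.4% in CD8 T cells. The Man1a2 share of that set was 28.2% ± 2.09 in CD8 controls and 22.4% ± 1.09 with mannose, without overlap.

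**Figure D3:**
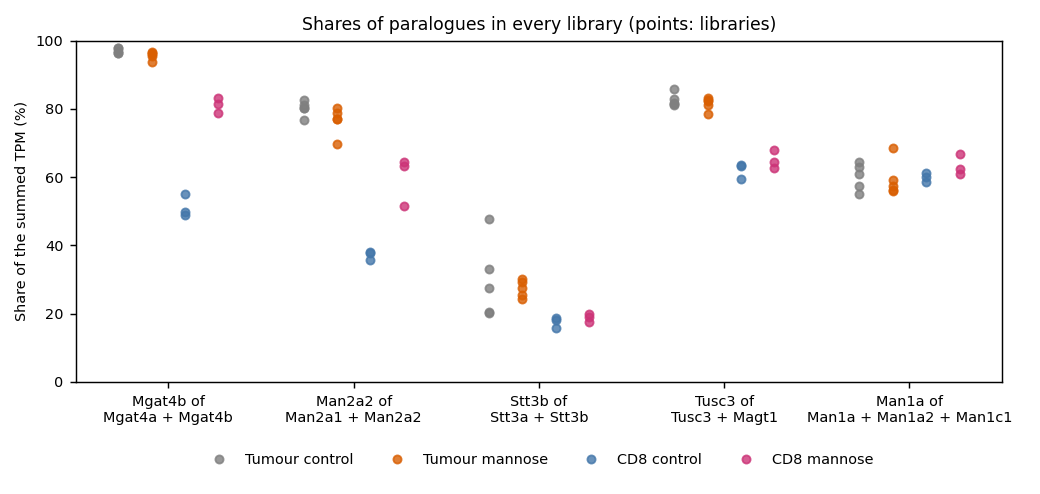
Share of the summed TPM that 1 paralogue holds in its pair or set, for every library, with colours for the 4 groups. Mgat4b and Man2a2 separate CD8 control from CD8 mannose (48.9% to 55.0% against 78.8% to 83.2%, and 35.7% to 38.0% against 51.5% to 64.3%), and the shares drawn for the other 3 sets overlap; the Man1a2 share of the Golgi mannosidase I set, which does not overlap, is not drawn.

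The members varied more among control tumours than among mannose tumours. The log2 SD was larger in the controls for 40 of 44 members (90.9%, background 78.6%), and for 31 of 44 (70.5%, background 51.8%) with control 1 left out, a check added after the data were seen. Control 1 was the lowest of the 10 tumours for 30 members (background 59.8%) and the highest for 2, Dpm1 and Dpm3 (background 7.77%). It also had the fewest symbols at 1 TPM. Its T cell, macrophage and fibroblast marker sums were the lowest of the 10 (9.0, 1586.8 and 116.6 TPM), and its neutrophil sum was the highest (246.8 TPM). The part of these in the member values was not tested. Controls 3 and 5 were the 2 highest tumours for 15 members (34.1%, background 14.2%). They also had the 2 highest carcinoma marker sums of the 10 tumours (5144.4 and 5735.9 TPM). Control 1 itself had a carcinoma sum of 4890.9 TPM, above every mannose tumour (3572.7 to 4551.7 TPM). The part of these sums in the member values was not tested.

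Stt3a had the widest range, at 22.4, 66.4, 156, 90.1 and 149 TPM in controls 1 to 5 and 93.5, 113, 98.2, 78.2 and 68.4 TPM in mannose 1 to 5. Control 1 was far below and controls 3 and 5 above all mannose tumours, a 6.95-fold range over the 10. Stt3b ran from 20.4 to 40.4 TPM over the same tumours, so in control 1 it held 47.7% of the pair, against 20.3% in control 5. Man2a1 varied 6.94-fold, from 2.04 TPM in control 1 to 14.2 TPM in mannose 3, Man1a2 4.63-fold, Man2a2 3.90-fold and Mgat5 3.04-fold. The median member varied 1.86-fold between its highest and lowest tumour.

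**Figure D4:**
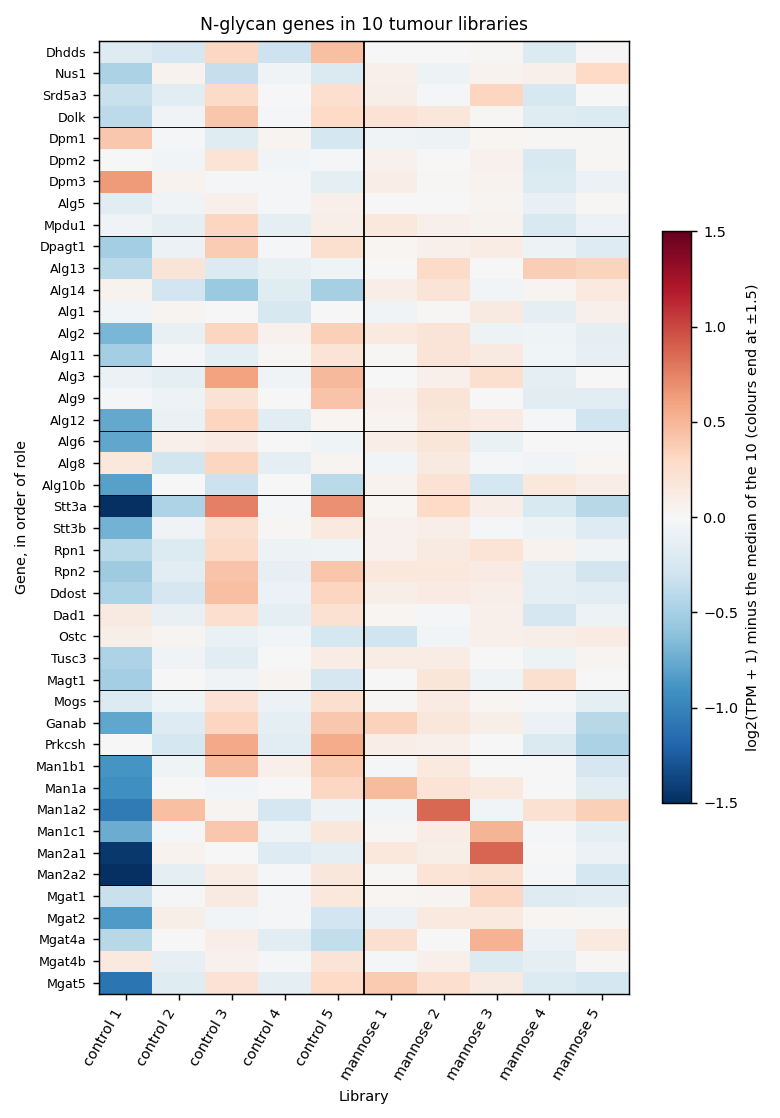
Log2(TPM + 1) of the 44 genes (rows, in order of role) in the 10 tumour libraries (columns), each minus the gene's median over the 10. Control 1 is the lowest library for 30 genes, with Stt3a, Man2a1 and Man2a2 among the darkest cells, while controls 3 and 5 are the 2 highest for 15.

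Levels in control CD8 T cells and control tumours are set side by side as a description, since the tables of each tissue were made separately and list different symbols. The CD8 controls also held macrophage markers at 3396.2 to 3898.1 TPM, above every control tumour (1586.8 to 2843.3 TPM). Their T cell markers summed to between 5442.6 and 6047.2 TPM. The part of other cells in the levels below was not tested. At least 2-fold higher in CD8 controls were 4 members (background 25%). These were Mgat4a (22.4 ± 2.19 against 2.28 ± 0.51 TPM, a log2 ratio of 2.84), Man2a1 (41.3 ± 2.17 against 5.92 ± 2.23 TPM, 2.61), Nus1 (1.08) and Man1a2 (1.00). At least 2-fold lower were 5 (background 17.7%). These were Mgat4b (23.6 ± 3.02 against 77.6 ± 6.89 TPM, -1.67), Alg2 (9.99 ± 1.41 against 30.3 ± 8.21 TPM, -1.51), Dpm3 (-1.21), Tusc3 (-1.05) and Dolk (-1.02). The groups did not overlap for 8 members higher (background 39%) and 11 lower (background 25.4%).

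Since the CD8 controls enter both comparisons, the tissue ratio and the CD8 mannose difference can be set beside each other only as values. Mgat4a and Man2a1, high in CD8 controls, had mannose differences of -1.25 and -0.91, and Nus1 and Man1a2 of -0.07 and 0.03. Mgat4b, Alg2 and Tusc3, low in CD8 controls, had differences of 0.67, 1.05 and 0.45, and Dpm3 and Dolk of 0.03 and 0.25. The carcinoma and fibroblast marker sums of the CD8 mannose libraries were higher and the macrophage sums lower, as given above, and their part in these member values cannot be told apart from that of mannose.

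**Figure D5:**
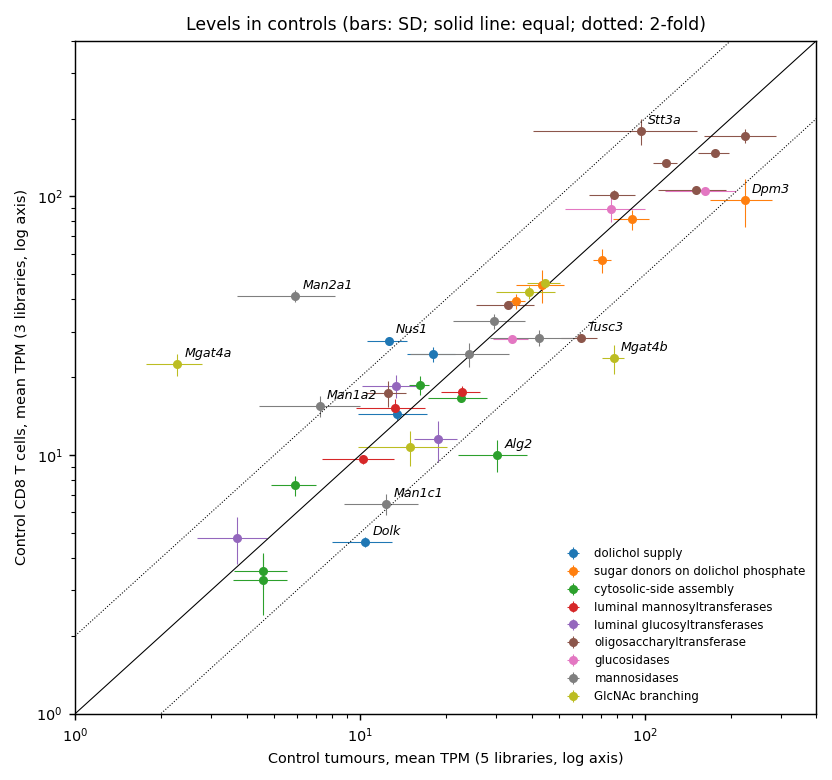
Mean TPM of the 44 genes in control tumours (x axis, 5 libraries) and control CD8 T cells (y axis, 3 libraries), on log axes with SD bars; dotted lines mark a 2-fold ratio. Mgat4a and Man2a1 stand above the upper line and Mgat4b and Alg2 below the lower one, while 35 of the 44 lie within 2-fold.

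Summed over the genes listed for each role, oligosaccharyltransferase and the 5 genes of the mannose and glucose donors on dolichol phosphate led in both tissues. These sums also depend on how many genes a role lists. The 9 oligosaccharyltransferase genes summed to 951 ± 188 TPM in tumours without mannose and 943 ± 72.1 TPM with it (SD, n = 5), and the 5 donor genes to 464 ± 59.0 and 438 ± 32.0 TPM. The luminal glucosyltransferases were the least abundant step in each of the 4 groups but CD8 mannose, at 35.7 ± 3.30 and 39.7 ± 3.26 TPM in the tumours. All 44 members together held 2209 ± 310 and 2175 ± 168 TPM in control and mannose tumours, and 1968 ± 34.0 and 2086 ± 27.5 TPM in CD8 controls and mannose. The tumour sums overlapped and the CD8 sums did not (1941 to 2006 and 2067 to 2118 TPM).

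A further 45 genes that work beside the members in the pathway were read in the same fits. In CD8 T cells 11 of the 42 tested were called higher and 4 lower, with a median of 0.14; these shares, 26.2% and 9.52%, were near the 23.2% and 11.7% over all genes. In tumours 0 of 41 were called. Golgi capping, with 18 of the 42 genes tested, had 6 rises and 3 falls (33.3% and 16.7%, against the same background). Mgat3, which adds the bisecting N-acetylglucosamine, rose from 14.1 ± 3.09 to 45.4 ± 5.79 TPM (1.63, adjusted p = 0.00174). Fut8, which adds the core fucose, rose from 27.5 ± 7.14 to 65.4 ± 4.69 TPM (1.25, adjusted p = 0.0041), and the galactosyltransferase gene B4galt2 from 2.27 ± 0.40 to 8.51 ± 1.81 TPM (1.53, adjusted p = 0.00241). Another galactosyltransferase gene, B4galt5, fell from 99.8 ± 6.46 to 49.4 ± 12.9 TPM (-1.03, adjusted p = 0.00628). In the tumours these genes had means of 52.3, 57.3, 19.1 and 25.8 TPM in controls, above the CD8 controls for the 3 that rose and below them for B4galt5.

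In the folding and export list, 3 of 9 rose in CD8 T cells, a list too short to read against the background of 23.2%: Lman1, a cargo receptor for mannose-bearing glycoproteins (0.59, adjusted p = 0.00984), the lectin chaperone gene Canx (0.52, adjusted p = 0.018) and Ngly1, which removes N-glycans from misfolded proteins (0.52, adjusted p = 0.0156). Of 5 genes that lead from mannose to GDP-mannose, Pmm1 rose (0.60, adjusted p = 0.0456) and Gmppb, a subunit of the enzyme that makes GDP-mannose, fell (-0.60, adjusted p = 0.0341). Among 10 other assembly and oligosaccharyltransferase genes, 1 was called, the translocon-associated Ssr3 (0.47, adjusted p = 0.0192).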

How the data were processed

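Messenger RNA was measured in 16 bulk libraries, and groups follow the sample labels. The authors deposited 1 table per library of TPM (read as such from the values, which sum to between 993815.0 and 997809.5); fastp, HISAT, RSEM and GRCm39 are named, per the submitters' processing notes, with no versions. TPM keeps no read depth, so no counting interval is given. Members were matched by symbol, with no duplicate entries among them. Differences were tested with limma 3.58.1 (R 4.3.3, variance trend, two-sided) on log2(TPM + 1), a pseudocount of 1, for genes with at least 1 TPM in 5 tumour, 3 CD8 or, for the interaction, 3 of all 16 libraries, and adjusted by Benjamini-Hochberg over all genes tested. The members and lists were chosen with earlier results of these data known. Per-library values are given for the 8 largest CD8 rises and the falls, the 5 smallest tumour p-values and the paralogues; Prkcsh, Man1b1, Mogs and the pathway genes were named after their values were seen. Alternatives were the pseudocount, the filter, the scaling, the replicate number, weights, 1 joint fit, T cell marker scaling, averaged like pairs and each library left out. The filter, weights, T cell marker scaling and averaged pairs were not among those of the interaction. Fits were tested on simulated data. Promoters are RefSeq's.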

Additional observations from a re-analysis of the deposited data

Results flagged for a closer look

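In groups of 5 tumours, each member was checked in each group for a highest or lowest library that stood apart by Dixon's criterion. This was found in 8 of 88 checks (9.09%). Chance gives about 1 in 20 for independent checks of normally distributed values. These checks share libraries, and the share over all genes is not given, so the excess is not read as a result about the members. Of the 8, 4 were tumour control 1: Dpm3 was high there at 320.48 TPM, and Alg6, Man2a1 and Man2a2 were low at 1.93, 2.04 and 8.32 TPM. In mannose 4, Dhdds (11.3 TPM) and Dpm2 (59.33 TPM) were low. Dpm2 was high in control 3 (80.21 TPM), and Man2a1 was high in mannose 3 (14.15 TPM), the tumour with the highest T cell, macrophage and fibroblast marker sums (109.6, 4488.3 and 1897.3 TPM), whose part in the value was not tested.

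The mannose effect differed between CD8 T cells and tumours, by limma's interaction term with Benjamini-Hochberg adjustment, for Mgat4a (-1.5869, CD8 minus tumour on the log2 scale), Man2a1 (-1.4664), Alg2 (1.0271) and Mgat4b (0.7714), with the adjusted p given above.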

How the results depend on the processing

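Against 12 rises and 4 falls in CD8 T cells, median-ratio scaling gave 7 rises, array weights 22 and 10 falls, all 16 libraries in 1 fit 7 and 2, T cell marker scaling 0 falls, averaged like pairs 1 and 1, and each library left out 5 to 11 rises and 3 to 6 falls. Over all genes, each library left out gave 1909 to 3610 rises and 894 to 2509 falls of 14685 to 14845 genes. No filter on low values gave 8 rises and 4 falls (2782 and 1250 of 27302 over all genes). For the interaction (2 and 2), quantile normalization and median-ratio scaling gave 4 higher each, and each library left out 1 to 5 higher and 1 to 3 lower. Over all genes the main fit had 1712 higher and 1184 lower, and these 2 scalings 1979 and 2089 higher. Each library left out gave 1139 to 2630 higher and 745 to 1604 lower over all genes. The tumour count was 0 in each alternative run. The cause of these shifts was not tested. Signs turned for Srd5a3 (0.0078) and Mpdu1 (0.28) under T cell marker scaling, and for the uncalled Man1a2 in CD8 T cells after quantile normalization (-0.15), median-ratio scaling (-0.048) and averaged pairs (-0.013), with -0.040 to 0.093 over libraries left out. In tumours, without control 1 and mannose 3 together, Stt3a was -0.32, Stt3b -0.11, Man1c1 -0.12 and Man2a2 -0.046; Stt3b was -0.048, -0.061 and -0.011 after quantile normalization, median-ratio scaling and array weights, and Man1c1 -0.00021 after quantile normalization. With each tumour left out, Stt3a ran from -0.29 to 0.40, Stt3b from -0.11 to 0.13 and Man1c1 from -0.022 to 0.27. Deviations from the group means correlated between same-numbered libraries at r from -0.511 to 0.28 in tumours and from 0.057 to 0.163 in CD8 T cells. With 3 or 5 libraries per group, these values cannot decide whether the numbers pair the libraries. With the replicate block, 12 rose and 4 fell in CD8 T cells (3152 and 1686 of 14280 over all genes), 14 of the 16 also called without it. The block gave 0 calls in tumours (0 of 13282 over all genes) and 2 and 2 for the interaction (1467 and 1026 of 15498). The unknown read depth limits low members such as Mgat4a in tumours.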
